A study of Mus musculus with 12 samples.

Results

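Duxf3, the gene of the double homeobox transcription factor Dux, and 6 genes known as markers of the 2-cell-like state (Zfp352, Tcstv1, Tcstv3, Tmem92, Calcoco2 and Sp110) were followed through 2 experiments on mouse 2-cell embryos. The 7 genes were taken by name from a selection of known markers that left out the Zscan4, Usp17l, Tdpoz and Eif1ad families, and all 7 are among the 20244 genes listed in at least 1 of the 2 tables. In the mouse the embryo's own genome is first transcribed broadly at the 2-cell stage. Dux is a short-lived activator of that programme: it binds long terminal repeats of the MERVL family and switches on genes next to them, and the same genes come up together in the rare embryonic stem cells that resemble 2-cell embryos. Dppa2 and Dppa4 act upstream of Dux as activators, and Trim28 and Lin28a are among the factors that keep it silent.

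Each group held 2 libraries, A and B, made with a Smart-seq2 kit, and the values are CPM, the reads of a gene scaled to a common total per library. In the knockdown experiment, embryos of CF1 mice received a reagent against Eif1ad3 and its variants (labelled Eif1ad3_KD) or the control reagent alone (labelled WT). The design text names RfxCas13d mRNA, an RNA-cutting enzyme, given at the 1-cell stage with or without a guide RNA. The protocol of the samples instead names antisense morpholino oligos with Cas13d protein, given to oocytes. In the immunoprecipitation experiment, zygotes received 200 ng/uL of in vitro transcribed Eif1ad3 mRNA with a His tag (labelled Eif1ad3_OE), and RNA was recovered at the 2-cell stage, from 200 cells per replicate, on beads with an anti-His antibody (His libraries) or with IgG as the background. The IgG libraries carry the same Eif1ad3_OE label, so both pulldown groups come from embryos given the tagged mRNA. Nothing in the labels says that libraries of a group came from separate embryo collections, so p-values measure only the spread between these libraries.

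The knockdown-table libraries summed to between 18173916 and 27902514 reads, where the floor used here, 3 reads, equals 0.108 to 0.165 CPM. The pulldown libraries were shallower, between 4678563 and 8364126 reads, with a floor of 0.359 to 0.641 CPM. Of 19390 genes listed, 5146 and 5313 had no read in His A and B, and 12574 and 12217 had none in IgG A and B. Eif1ad3 itself was at 839 and 663 CPM in controls A and B and at 277 and 377 CPM in knockdown A and B. All 7 genes of a list of 2-cell stage markers (which includes Zfp352) had at least 1 CPM in every knockdown-table library, with summed levels of 2421 to 3386 CPM. Cumulus cell markers (4 of 8 listed) summed to 5.94 to 13.8 CPM and sperm markers (2 of 5 listed) to 1.65 to 3.05 CPM. Markers of later embryo stages (6 of 8 listed) summed to 36.8 to 66.0 CPM. The 12 oocyte markers summed to 15789 CPM in knockdown A and to 6895 to 7196 CPM in the other 3 libraries of that table. In the His libraries the 2-cell stage markers summed to 132 and 134 CPM with none at 0, and in IgG A and B to 1.52 and 27.8 CPM, with 4 and 3 of the 7 at 0. Oocyte markers summed to 14738 and 14936 CPM in His A and B and to 4939 and 5777 CPM in IgG A and B. Later embryo markers summed to 113 and 81.2 CPM in His and to 117 and 3.21 CPM in IgG. Cumulus cell markers were at 5.98 and 20.0 CPM against 0 and 0 CPM, and sperm markers at 1.08 and 7.20 CPM against 47.4 and 54.3 CPM.

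Promoter sequence from RefSeq (build GRCm38.p6, 250 bases before to 50 after an annotated start) (an older build than the GRCm39 named for the tables) was held for 3 of the 7 genes, and the stretches of Zfp352 and of the first Sp110 start are shown because they share a repeated motif. Zfp352 lies on chr4:90218570-90218869 (plus strand) and Sp110 on chr1:85603842-85604141 (minus strand), both written 5′ to 3′ along the gene, with capitals for CCTTTAATC on either strand and for TATAAG.
Zfp352: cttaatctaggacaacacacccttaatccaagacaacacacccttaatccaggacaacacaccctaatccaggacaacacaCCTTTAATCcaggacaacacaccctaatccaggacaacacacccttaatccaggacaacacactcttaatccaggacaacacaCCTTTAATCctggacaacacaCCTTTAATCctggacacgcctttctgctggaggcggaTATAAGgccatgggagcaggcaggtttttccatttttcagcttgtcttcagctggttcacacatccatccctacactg
Sp110: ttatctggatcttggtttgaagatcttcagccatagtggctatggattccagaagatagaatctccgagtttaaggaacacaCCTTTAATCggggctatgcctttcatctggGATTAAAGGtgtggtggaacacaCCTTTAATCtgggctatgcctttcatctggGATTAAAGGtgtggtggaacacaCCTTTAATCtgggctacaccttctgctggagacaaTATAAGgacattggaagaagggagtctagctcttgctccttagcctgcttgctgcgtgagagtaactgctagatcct
CCTTTAATC occurred 3 times in the Zfp352 stretch, all forward, and 5 times in the Sp110 stretch, 3 forward and 2 reversed. Of 32851 RefSeq stretches of this length, 178 (0.542%) held the motif on either strand and 2 held at least 4 copies. The shorter motif TAATCC, which overlaps CCTTTAATC where a C follows, occurred 9 times in the Zfp352 stretch, the highest number in any stretch, and 2 times in that of Sp110; 7.06% of stretches held it at least once. TAATCC is the core bound by homeodomain proteins of the bicoid type. TATAAG, the letters of a TATA box, began 28 bases before the start in Zfp352 and 27 bases before it in Sp110, and 7.43% of stretches held it on either strand. The second Sp110 start and the Duxf3 stretch held no CCTTTAATC and no TATAAG. A match describes these letters and shows no binding.

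In the knockdown experiment no marker passed the test. Of the 7 genes, 6 reached the minimum for testing (at least 1 CPM in at least 2 libraries), and 0 of the 6 had an adjusted p under 0.05 (limma on log2(CPM + 1), Benjamini-Hochberg over all 13332 genes tested), where the share of all genes called was 0.00%. At an unadjusted p under 0.05 limma called 726 genes (5.45%), of which 1, Calcoco2, was a member. On the reads recovered from the CPM steps, edgeR called 0 genes (758 unadjusted) and DESeq2 15 genes, none of them a member. All 6 had a negative log2 fold change, where 48.7% of all genes tested did. Their median was -0.42 beside 0.02 over all genes. Without knockdown B it was 5 of the 6 that were negative.

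Duxf3 RNA was next to absent from the knockdown-table libraries. Control A and knockdown B had 0 reads, control B had 1 and knockdown A had 4, so every library but knockdown A was under the floor and no fold is given. A second symbol, Dux, carried the same read number as Duxf3 in each of the 8 libraries and is not counted as a separate gene. A difference in Dux RNA between control and knockdown embryos was not detectable at this depth.

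Zfp352, a zinc finger gene read almost only around the 2-cell stage, was at 811 and 871 CPM in controls A and B and at 735 and 827 CPM in knockdown A and B. The groups overlapped, and the spread within each was as wide as the distance between them. Control embryos averaged 841 ± 42.4 CPM and knockdown embryos 781 ± 65.1 CPM (SD, n = 2 each), with a log2 fold change of -0.11, limma's 95% interval from -0.79 to 0.57 and an adjusted p of 0.983. Knockdown A and B stood at 87.4% and 98.4% of the control mean.

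Tcstv1 and Tcstv3 are a pair of similar genes of a 2-cell-specific cluster. Tcstv1 was at 583 and 420 CPM in controls A and B and at 410 and 329 CPM in knockdown A and B. Tcstv3 was at 915 and 761 CPM in controls and at 689 and 571 CPM in knockdown embryos. In both genes both knockdown libraries lay below both controls, for Tcstv1 by a narrow gap between control B and knockdown A. The knockdown mean was 73.7% of the control mean for Tcstv1 (log2 fold change -0.43, SE 0.33, limma's adjusted p 0.881) and 75.2% for Tcstv3 (-0.41, SE 0.31, adjusted p 0.878). Neither difference passed, and the 2 genes gave nearly the same values.

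Calcoco2, the gene of an autophagy receptor, showed the lowest knockdown level against control of the 6. It was at 134 and 166 CPM in controls A and B and at 64.7 and 88.1 CPM in knockdown A and B. The groups did not overlap. The means were 150 ± 22.4 and 76.4 ± 16.6 CPM (SD, n = 2 each), or 50.9% of control. On the log2 scale this was -0.98 (SE 0.36, 95% interval -1.80 to -0.15), rank 560 from the lowest of the 13332 genes, and limma's adjusted p was 0.859. Without knockdown B it passed (log2 fold change -1.20, adjusted p 0.0210), with 414 genes then called over the whole table and the lone knockdown library assumed to vary like the controls. It did not pass without knockdown A (-0.75, adjusted p 0.0582, with 1894 genes called), nor without control A (-1.13) or control B (-0.82), where 0 genes were called. Both knockdown libraries below both controls was seen for 3 of the 6 genes tested (Calcoco2, Tcstv1 and Tcstv3) and for 18.4% of all genes tested.

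In Sp110 and Tmem92 the knockdown libraries disagreed with each other. Sp110, an interferon-inducible nuclear body gene, was at 239 and 281 CPM in controls A and B, at 253 CPM in knockdown A and at 100 CPM in knockdown B. Tmem92, a transmembrane protein gene, was at 62.5 and 59.2 CPM in controls, 62.7 CPM in knockdown A and 34.4 CPM in knockdown B. Knockdown A was at 97.3% of the control mean for Sp110 and 103% for Tmem92, and knockdown B at 38.5% and 56.5% of it. The log2 fold changes were -0.70 (SE 0.46) for Sp110 and -0.38 (SE 0.42) for Tmem92, with limma's adjusted p of 0.859 and 0.917. Without knockdown A, Sp110 passed (-1.36, adjusted p 0.00153, with 1894 genes then called). Without knockdown B the values were -0.03 for Sp110 and 0.04 for Tmem92. Knockdown A also held the higher sum of the 12 oocyte markers (15789 CPM against 6895 CPM in knockdown B), and their part in these values was not tested. In embryos sequenced in bulk, fewer embryos at a stage and less RNA per embryo cannot be told apart.

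**Figure D1:**
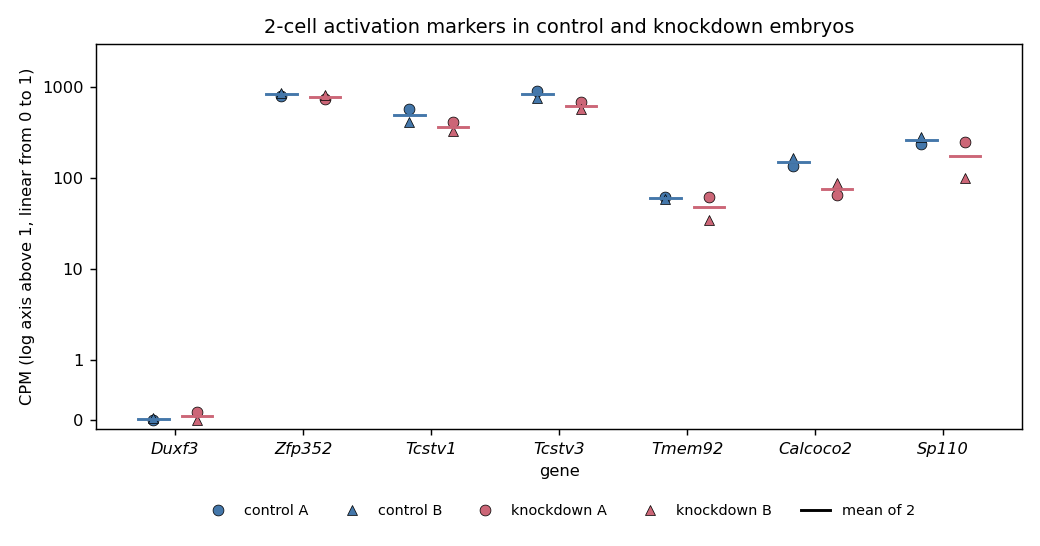
CPM of the 7 genes (x axis) in control A and B and knockdown A and B, on an axis that is logarithmic above 1 CPM and linear from 0 to 1, with lines at group means. Calcoco2 lies lower in both knockdown libraries (64.7 and 88.1 CPM) than in both controls (134 and 166 CPM), while for Sp110 and Tmem92 knockdown B is set apart from the other 3 libraries.

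The pattern over the 4 libraries was also compared between genes. Likeness was measured as the root mean square difference of log2(CPM + 1) after centring each gene on its own mean, over the 4 libraries of the knockdown table and the 6143 genes at 10 CPM or more in all of them. With so few libraries many genes come close by this measure: 172 genes lay within 0.1 of Zfp352, 83 of Tcstv3, 41 of Tcstv1 and 30 of Sp110. For Calcoco2 the number was 4, the closest being Nr2c2 (0.0576) and Hexim1 (0.0644). The closest to Sp110 were Cit (0.0126) and Bspry (0.0250), to Zfp352 Sat2 (0.0102) and Eif1 (0.0240), to Tcstv1 Gfm2 (0.0289) and Utp6 (0.0363), and to Tcstv3 Rrm2 (0.0277) and Gpn1 (0.0301). Tmem92 lay closest to Abi3bp (0.0290) and Trnau1ap (0.0305), with 103 genes within 0.1.

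Genes around the Dux programme were read from fixed lists in the same test. Of 4 activators of Dux all 4 had a negative log2 fold change (median -0.48), 2 had both knockdown libraries below both controls, and 0 passed. Over all genes the shares were 48.7% negative and 18.4% below both controls. In the activators without values here, knockdown A lay above both controls and knockdown B below both, so their negative sign rests on knockdown B. Dppa2 was at 697 and 777 CPM in controls A and B and at 396 and 449 CPM in knockdown A and B (log2 fold change -0.80, SE 0.30). Dppa4 was at 851 and 971 CPM in controls and at 524 and 578 CPM in knockdown embryos (-0.72, SE 0.30). Neither gene's groups overlapped, and limma's adjusted p was 0.859 for both. Of 21 genes known to keep Dux or the 2-cell state silent, 13 were negative and 8 positive (median -0.16), with 0 passing. Trim28, the corepressor that recruits histone methylation to repeats, was at 149 and 155 CPM in controls and at 87.2 and 62.5 CPM in knockdown embryos (-1.03, SE 0.35, adjusted p 0.859). Its fold change was the lowest of the 21. Lin28a, an RNA-binding protein, was at 9.48 and 13.1 CPM in controls and at 9.39 and 5.83 CPM in knockdown embryos (-0.53, SE 0.54, adjusted p 0.910). Dppa2, Dppa4, Trim28 and Lin28a lay lower in both knockdown libraries than in both controls, for Lin28a by a narrow margin between knockdown A and control A. Over the whole list of silencing factors this held for 5 of 21, with both knockdown libraries above both controls for 2, beside 18.4% below and 18.1% above over all genes.

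Among 19 of 29 other 2-cell genes found in the table, 16 were negative (median -0.39), 10 had both knockdown libraries below both controls and 0 passed. Among 32 genes of the Zscan4, Usp17l, Tdpoz and Eif1ad families, 26 were negative (median -0.44), 15 had both knockdown libraries below both controls and 0 passed; the Eif1ad genes in this list are the targets of the knockdown or their relatives. Over all genes tested the median was 0.02, with 48.7% negative and 18.4% below both controls. These counts give no independent support to the values of the 7 genes.

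In the pulldown, Tcstv1 was higher with the anti-His antibody than with IgG by limma. Zfp352 was called too, but its direction was fixed by the filter on low values, and the other 5 genes did not pass. The means of Tcstv1 differed 201-fold, while its neighbour Tcstv3 stood at 410 ± 18.8 CPM in His and 462 ± 360 CPM in IgG (SD, n = 2 each). All 7 genes reached the minimum for testing, Zfp352 through the His libraries alone, so that it could enter the test only by being higher in His. At an adjusted p under 0.05 (limma, 11232 genes tested) 2 of the 7, Zfp352 included, were higher in His, where 35.7% of all genes were, and 0 were lower, where 0.917% were. In either direction 36.6% of genes passed, and at an unadjusted p under 0.05 it was 3 of the 7 members and 44.6% of all genes. The share of these markers called did not exceed the background, and the values differed from gene to gene. Both His libraries lay above both IgG libraries for 4 of the 7 genes and for 54.1% of all genes, and below both for 0 of the 7 and 9.06% of all genes. A negative log2 fold change was found for 0 of the 7 genes and for 21.5% of all genes, but median rescaling turned Tcstv3 (-0.22) and Sp110 (-0.045) negative and quantile normalization Duxf3 (-0.33). DESeq2 gave 4 of the 7 a negative value (Calcoco2 -1.99, Tcstv3 -0.63, Sp110 -0.060 and Tmem92 -0.033) and edgeR 2 (Calcoco2 -1.69 and Tcstv3 -0.35). The median log2 fold change was 1.99 over the 7 genes and 2.01 over all genes, so each gene is also given by the share of tested genes with a lower or equal fold change.

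Tcstv1 was at 664 CPM in His A (5556 reads) and 621 CPM in His B (4915 reads), against 1.69 CPM in IgG A (10 reads) and 4.70 CPM in IgG B (22 reads). The groups lay far apart, with means of 643 ± 30.8 and 3.20 ± 2.13 CPM (SD, n = 2 each), a 201-fold difference. Low IgG values were not particular to Tcstv1, as 28.2% of the 11232 genes tested had no read in either IgG library. The log2 fold change of 7.36 (SE 0.90, limma's adjusted p 0.0123) stood at percentile 99.9, rank 11220 from the lowest of the 11232 genes. The call was lost with edgeR (adjusted p 0.0547) and with quantile normalization in limma (adjusted p 0.140).

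Tcstv3 did not follow its neighbour. It was at 397 and 423 CPM in His A and B and at 717 and 207 CPM in IgG A and B, so the IgG libraries lay on either side of the His libraries. The log2 fold change was 0.09 (95% interval -2.10 to 2.27, limma's adjusted p 0.952), at percentile 22.8. Without IgG A it was 0.98 (adjusted p 0.00494) and without IgG B -0.80 (adjusted p 0.00603), opposite calls that rest on which IgG library is kept, in fits that called 69.1% and 70.0% of all genes.

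The pair can be set against each other inside a library, where scaling does not enter. Tcstv1 made up 38.9% and 35.6% of the reads of both genes together in controls A and B, 37.3% and 36.5% in knockdown A and B, 62.6% and 59.4% in His A and B, and 0.235% and 2.22% in IgG A and B. The exact 95% binomial intervals were 61.6% to 63.6% for His A, 58.4% to 60.5% for His B, 0.113% to 0.432% for IgG A and 1.39% to 3.34% for IgG B; they cover counting error only, since reads amplified by PCR without molecular identifiers are not independent molecules. The His and IgG means differed by 59.8 percentage points, and the exact two-sided permutation test gave p = 0.333, the smallest p that 2 libraries against 2 allow. The knockdown mean minus the control mean was -0.326 points (exact permutation p = 1). Tcstv1 and Tcstv3 are similar in sequence and the labels do not say how reads matching both were counted, so the single values are uncertain. Genes high in 1 IgG library often had no read in the other, and the part of such gaps in the IgG shares was not tested.

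**Figure D2:**
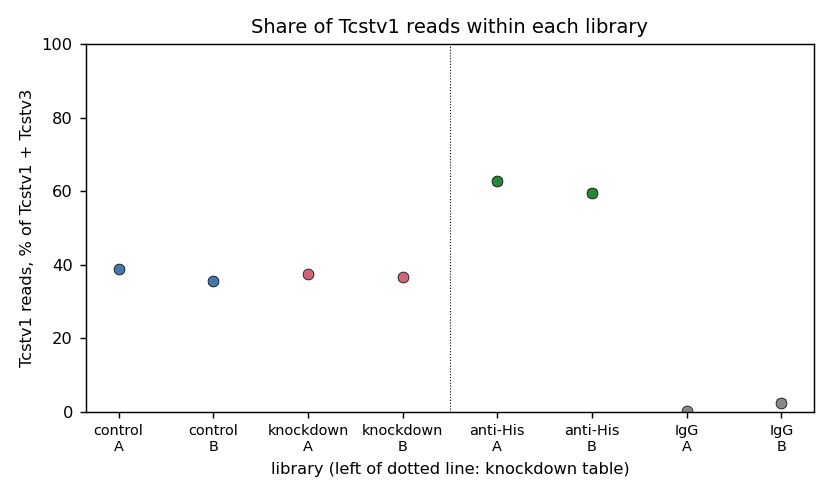
Tcstv1 reads as a percentage of Tcstv1 plus Tcstv3 reads in each of the 8 libraries, with exact 95% binomial intervals that are mostly smaller than the points. The 4 libraries of control and knockdown embryos lie between 35.6% and 38.9%, the 2 His libraries at 62.6% and 59.4%, and the 2 IgG libraries at 0.235% and 2.22%.

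Zfp352 was at 16.5 CPM in His A (138 reads) and 36.5 CPM in His B (289 reads), with no read in IgG A and 0.427 CPM in IgG B (2 reads). The ratio of the summed reads per total reads, His over IgG, was 139 with an exact 95% interval from 38.3 to 1152, which pools the reads of both libraries and covers counting error only. Its log2 fold change was 4.42 (SE 0.61, limma's adjusted p 0.0151), at percentile 87.9, a description only, since the filter on low values fixed its direction. Zfp352 RNA was present in both His libraries and at or under the floor in both IgG libraries. No read in both IgG libraries was common, at 3162 of the 11232 genes tested (28.2%). The table of control and knockdown embryos was normalised separately, so its Zfp352 values are not compared with these.

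Duxf3, close to the floor in the knockdown table, was at 20.8 and 8.21 CPM in the His libraries (174 reads in A, 65 in B) and at 1.86 and 0 CPM in the IgG libraries (11 reads in A, none in B). Both His libraries were above both IgG libraries, and His A was the higher of the pair. The log2 fold change was 3.07 (SE 0.83), at percentile 69.7, and did not pass (limma's adjusted p 0.0709). With the letters A and B as a block in limma it passed narrowly (adjusted p 0.0490), among 3894 of the 11232 genes. The letters are not shown to pair the libraries. It passed without IgG A (3.82, adjusted p 0.00939) and without IgG B (2.31, adjusted p 0.0434), where 69.1% and 70.0% of all genes passed. It did not pass by edgeR (adjusted p 0.293) or DESeq2 (adjusted p 0.0961), nor without His A (2.45) or His B (3.69) in limma, where 0.0889% and 0.0888% of all genes passed, and quantile normalization turned it negative (-0.33).

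Tmem92 was at 321 and 425 CPM in His A and B and at 124 and 542 CPM in IgG A and B. Sp110 was at 241 and 193 CPM in His and at 174 and 186 CPM in IgG. Calcoco2 was at 72.5 and 101 CPM in His, at 470 CPM in IgG A (2786 reads) and at 0 reads in IgG B. The IgG libraries enclosed the His libraries for Tmem92 and Calcoco2, and Sp110 was a little above IgG in both His libraries. The log2 fold changes were 0.51 (SE 0.89), 0.26 (SE 0.46) and 1.99 (SE 3.51) for Tmem92, Sp110 and Calcoco2, with limma's adjusted p of 0.752, 0.754 and 0.755. Their percentiles were 28.1, 25 and 49.8 in that order. For Calcoco2 the 95% interval ran from -8.50 to 12.5, so the data fix neither its direction nor its size: without IgG A the value was 6.43 (adjusted p 0.000263) and without IgG B -2.45 (adjusted p 0.000494). Tmem92 was at -0.55 without IgG A and at 1.57 without IgG B (adjusted p 0.0592 and 0.00154). With 69.1% of all genes called without IgG A and 70.0% without IgG B, passing in those fits sets no gene apart.

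Such gaps between the IgG libraries were frequent. IgG A had 1907 genes at or above 100 CPM, of which 345 (18.1%) had no read in IgG B, and IgG B had 2226, of which 436 (19.6%) had none in IgG A. In the His libraries 0 of 1832 and 0 of 1857 genes did so, which allows shares of up to 0.164% and 0.162%.

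**Figure D3:**
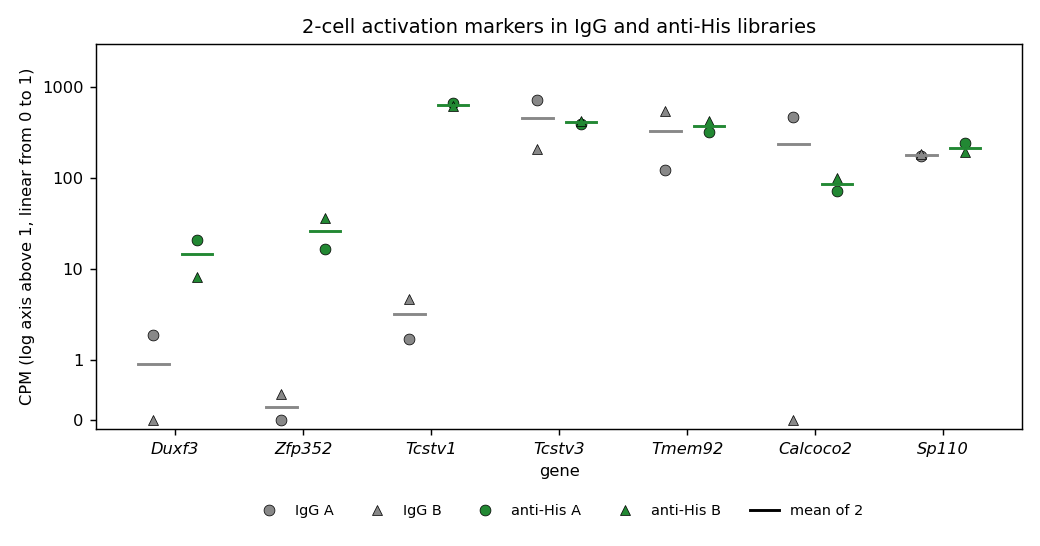
CPM of the 7 genes (x axis) in IgG A and B and His A and B, on an axis that is logarithmic above 1 CPM and linear from 0 to 1, with lines at group means. Tcstv1 (664 and 621 against 1.69 and 4.70 CPM) and Zfp352 are separated by group, and the IgG libraries of Calcoco2 lie at 470 and 0 CPM.

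Both calls, that of Zfp352 being a description only because the filter fixed its direction, were lost with edgeR and with quantile normalization. By edgeR on the recovered reads 0 genes passed (4592 unadjusted), with log2 fold changes no smaller than limma's: 7.64 for Tcstv1 (adjusted p 0.0547) and 6.92 for Zfp352 (adjusted p 0.0717). With quantile normalization 0 genes passed in limma (2339 unadjusted), with 6.02 for Tcstv1 (adjusted p 0.140) and 1.39 for Zfp352 (adjusted p 0.477). Median rescaling kept both calls, at 7.08 for Tcstv1 (adjusted p 0.0124) and 4.19 for Zfp352 (adjusted p 0.0166). DESeq2 called both genes, among 5513 genes of which 86.5% were higher in His, against 97.5% of limma's 4111 calls. Without His A or His B no member passed, in fits where 0.0889% and 0.0888% of all genes did, and the log2 fold change of Tcstv1 stayed at 7.31 and 7.41. In those fits 6750 and 6754 genes were tested, and Zfp352 was not among them because the remaining His library alone cannot meet the minimum. Without IgG A 5 of the 7 members passed, where 69.1% of all genes did, and without IgG B 6 of the 7, where 70.0% did, the lone IgG library then being assumed to vary like the others.

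**Figure D4:**
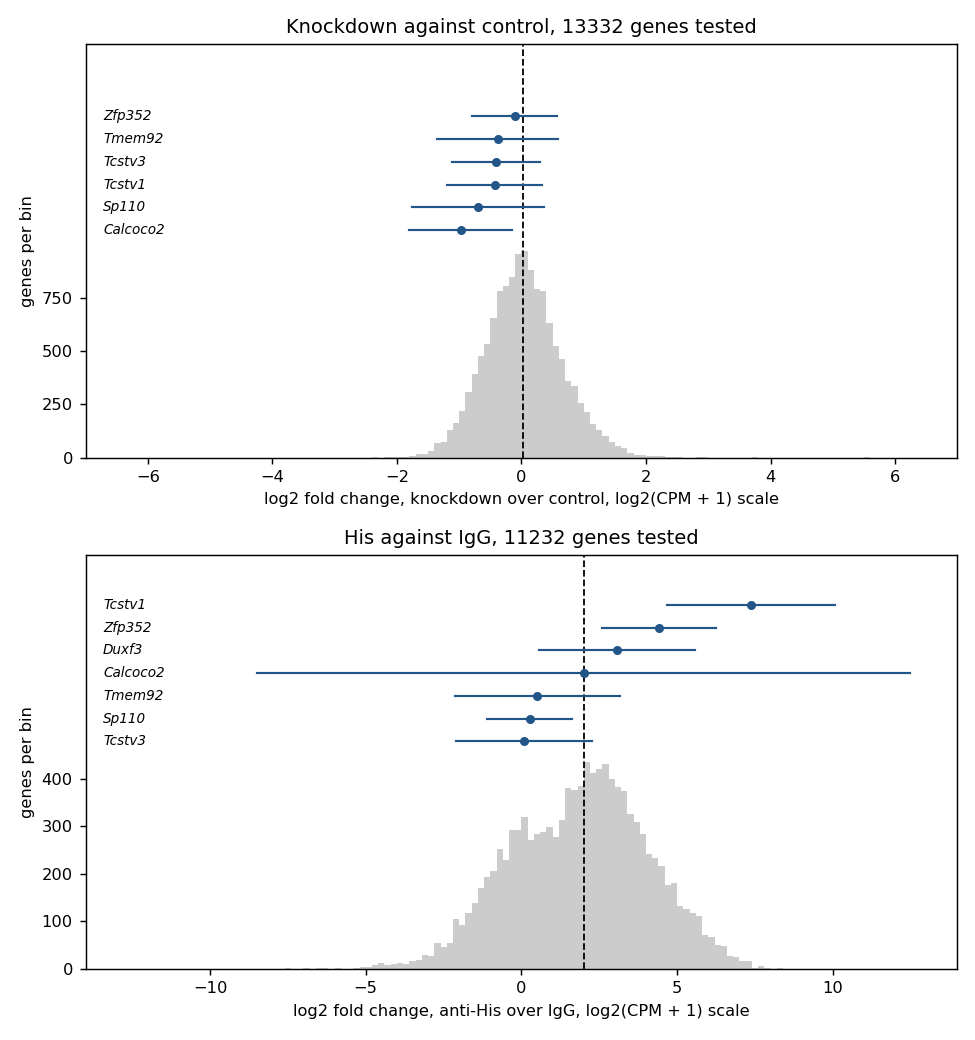
Histograms of the log2 fold change of all genes tested, on the log2(CPM + 1) scale, for knockdown against control (top, 13332 genes) and His against IgG (bottom, 11232 genes), with dashed lines at the medians (0.02 and 2.01) and, above, each gene's fold change with limma's 95% interval. The knockdown intervals span 0 except that of Calcoco2 (-1.80 to -0.15), and the pulldown values run from 0.09 (Tcstv3) to 7.36 (Tcstv1).

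The lists around Dux were read in the pulldown as well. Of the 4 activators, 1 passed, higher in His (median log2 fold change 3.63). Dppa4 was at 87.6 and 91.8 CPM in His A and B and at 9.96 and 9.62 CPM in IgG A and B (3.07, limma's adjusted p 0.0690). Dppa2 was at 29.9 and 48.1 CPM in His and at 0 and 83.8 CPM in IgG (2.08, adjusted p 0.649). Trim28 was at 387 and 304 CPM in His and at 854 and 385 CPM in IgG (-0.74, adjusted p 0.399). Lin28a was at 106 and 83.9 CPM in His and at 172 and 0.427 CPM in IgG (2.60, adjusted p 0.594). None of these 4 passed, and the gene of the list that did was Trp53, the p53 gene, at 137 and 183 CPM in His and with no read in either IgG library; it was named after its values were seen, and it reached the minimum for testing through the His libraries alone, so it could only come out higher in His. Of 20 silencing factors tested 2 passed, both higher in His (median 0.48). Of 19 other 2-cell genes 1 passed, higher in His (median 2.19). Of 27 genes of the 2-cell families 11 passed, all higher in His (median 2.42), beside a median of 2.01 and 35.7% called higher over all genes. Of those 11, 9 were under 1 CPM in both IgG libraries and entered the test through the His libraries alone, so their direction was fixed by the filter.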

How the data were processed

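The deposited tables hold CPM, which the authors scaled per library; the submitters' processing notes name Trim Galore 0.6.7, FastQC, HISAT2 2.2.1, featureCounts 2.0.1, edgeR and GRCm39, and the annotation, strand setting and gene filter are not given in the sources used here. In each library 100% of the values were whole multiples (within 0.01) of what 1 read is worth, which gave back reads and totals. Of 12 labelled samples 8 were used; the names of 4 value columns do not decide between the input and total RNA samples, so those columns and 3 of 5 planned comparisons were not run, and His against IgG was fitted on 4 libraries. Genes reaching 1 CPM in no fewer than 2 libraries of a table were tested on log2(CPM + 1) in limma 3.58.1 (R 4.3.3; eBayes with trend, two-sided, Benjamini-Hochberg over all genes, threshold 0.05), a scale that understates changes of low genes. edgeR 4.0.16 and DESeq2 1.42.0 were run on the recovered reads. Other alternatives were pseudocounts of 0.1 and 5, no filter, a mean of 5 CPM, 2 scalings, no trend, a replicate block and leaving out each library. The fit was tested on simulated reads with the same spread in every library. Gaps like those between the IgG libraries were not simulated, so that test does not cover them. The genes and the lists were chosen with earlier results of these data known, and 1 of the 8 genes of the selection is not reported here. Named genes are the other 7, Dppa2, Dppa4, Trim28 and Lin28a, and the 2 genes most like a member; Trp53 was added after its values were seen. List symbols were also matched through RefSeq synonyms.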

Additional observations from a re-analysis of the deposited data

How the results depend on the processing

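In knockdown against control, 0 members passed in limma on the deposited values (1 at an unadjusted p under 0.05) and in every other setting with all 4 libraries; leaving out a library gave 0 to 1. The fold change changed sign for Tmem92 (range -0.80 to 0.044 over the libraries left out). In His against IgG the 2 members called became 0 with quantile normalization (1 at an unadjusted p under 0.05) and 0 with edgeR (2 unadjusted), and 0 to 6 when a library was left out. Signs changed for Calcoco2 with DESeq2 (-1.99) and edgeR (-1.69), Duxf3 with quantile normalization (-0.33), Sp110 with DESeq2 (-0.060) and median rescaling (-0.045), Tcstv3 with DESeq2 (-0.63), edgeR (-0.35) and median rescaling (-0.22), and Tmem92 with DESeq2 (-0.033). Leaving out a library moved Calcoco2 between -2.45 and 6.43, Tcstv3 between -0.80 and 0.98 and Tmem92 between -0.55 and 1.57. The median of all genes was 2.01 and became 1.79 after median rescaling, -0.08 after quantile normalization, 1.56 in edgeR, 1.30 in DESeq2, and 3.66 and 0.94 at pseudocounts of 0.1 and 5, where Zfp352 (4.42) became 6.75 and 2.52 and Duxf3 (3.07) became 4.90 and 1.66; the cause of the other changes was not tested. With the replicate block 0 members passed in the knockdown and 3 of 7 in the pulldown, where Duxf3 was added (adjusted p 0.0490) and 3894 of 11232 genes passed; same-letter deviations correlated at 0.146 and -0.014, which does not show that A and B pair the libraries. The fit on only the groups compared was the reported one. Depth limits values at or under the floor of 3 reads in Duxf3 (3 of the 4 knockdown-table libraries and IgG B) and Zfp352 (both IgG libraries). Calcoco2 was also at 0 reads in IgG B, beside 2786 reads in IgG A, and the reason for that gap was not tested.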
